A study of Mus musculus with 12 samples.

Results

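The genes examined were the enolases Eno1 and Eno2, the enolase gene copy Eno1b, and the processed enolase copies Gm4735 and Gm5855. They are 5 of the 17283 genes in a table of RNA levels in the medial prefrontal cortex of mice. They were picked by symbol after it was known that Eno1b was higher and Eno1 lower in BTBR mice than in C57 mice given the solvent. Values of the solvent groups are therefore, for these genes, a description with no test. The strain difference among ASIV-treated mice, whose libraries played no part in that choice, is the comparison in which these genes are tested. It contrasts the same strains, and its fit takes the spread from all 12 libraries, so it is not fully independent of that choice. The 12 libraries formed 4 groups of 3: BTBR mice injected with ASIV (BTBR ASIV), BTBR mice injected with the DMSO solvent (BTBR vehicle), C57 mice injected with ASIV (C57 ASIV) and C57 mice injected with DMSO (C57 vehicle). All mice received intraperitoneal injections for 7 days. BTBR is an inbred strain used as a mouse model of autism-like behaviour, and C57 is the wild-type strain of the study. The age of the mice and the dose are not given in the labels. The strains differ across the whole genome, so a strain difference cannot be assigned to any 1 locus. The labels call the 3 libraries of a group parallel samples and do not say whether each came from a separate mouse, so p-values measure only the spread between these samples, which may be technical.

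Enolase converts 2-phosphoglycerate to phosphoenolpyruvate, the step of glycolysis just before pyruvate kinase. The active enzyme is a dimer. Eno1 encodes alpha-enolase, which is made in most tissues and in the brain is found in glia and immature neurons. Eno2 encodes gamma-enolase, which is typical of mature neurons and is known as neuron-specific enolase. Eno3 encodes beta-enolase of muscle, and Eno4 encodes an enolase-related protein of sperm. A processed copy, or retrocopy, arises when a spliced mRNA is copied into DNA and inserted elsewhere in the genome, so it lacks the introns of its parent gene. Most such copies are pseudogenes, and a fragment of RNA from a stretch that parent and copy share letter for letter can be assigned to either.

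The annotation, GENCODE M21 on the mm10 (GRCm38) build, showed these relations in the gene models. Eno1 (ENSMUSG00000063524) lies at chr4:150236721-150248879 on the plus strand, and its mRNA of 2027 bases has 12 exons. Gm4735 (ENSMUSG00000064193) lies at chr2:80837141-80838442 on the plus strand as a processed pseudogene of 1 exon. Its 1302 bases match the coding part of Eno1 in length and hold 0 in-frame stop codons, although the annotation gives it no protein. Gm5855 (ENSMUSG00000105558), a processed pseudogene at chr3:130929366-130930670 on the minus strand, has 3 in-frame stop codons in its 1305 bases, read in triplets from its first base. That reading was not corrected for the 5 gap bases in its alignment to Eno1. Whether 1 of the 3 is the normal end of the coding sequence was not checked. Eno2 (ENSMUSG00000004267) lies at chr6:124760053-124769673 on the minus strand, with 12 exons. Identity to the Eno1 coding sequence was 99.62% for Gm4735 (5 differing bases), 99.39% for Eno1b (8 differing bases), 96.02% for Gm5855 (47 differing bases) and 74.89% for the neuronal enolase Eno2.

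Gm4735 differs from Eno1 at 5 coding positions, T726C, T816G, A1056G, T1224C and C1233T. Each token gives the base of Eno1, the position counted from 1 at the A of the start codon, and the base of Gm4735. These are the only letters of its annotated length by which a fragment could be told from Eno1, and stretches around them are shown for that reason, all 5′ to 3′ on the plus strand with the differing bases in capitals.
Eno1 at T726C, chr4:150246613-150246653: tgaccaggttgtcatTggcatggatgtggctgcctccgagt
Gm4735 at T726C, chr2:80837851-80837891: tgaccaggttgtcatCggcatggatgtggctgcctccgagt
Eno1 at T816G, chr4:150246698-150246738: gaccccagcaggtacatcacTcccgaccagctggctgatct
Eno1 at A1056G, chr4:150247611-150247651: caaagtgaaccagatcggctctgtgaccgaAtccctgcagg
Gm4735 at A1056G, chr2:80838166-80838206: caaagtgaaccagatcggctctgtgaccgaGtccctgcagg
Eno1 at T1224C and C1233T, chr4:150248078-150248118: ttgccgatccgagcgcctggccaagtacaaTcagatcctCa
The first 725 coding bases hold no difference among Eno1, Eno1b and Gm4735 in the reference genome, which is that of a C57 mouse. At all 5 positions listed above Eno1b has the base of Gm4735, so none of those letters tells these copies apart. Eno1b and Gm4735 differ from each other at 3 coding positions, 747, 750 and 1047, where Gm4735 has the base of Eno1. In the reference, Gm4735 therefore has no coding base that both Eno1 and Eno1b lack. The BTBR genome was not analysed here, so its letters at these loci are not known from these data.

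The more distant members can be told from Eno1 from the start of the coding sequence on. Below are coding bases 1 to 60 on the minus strand, with capitals where a base is not that of Eno1.
Gm5855, chr3:130930611-130930670: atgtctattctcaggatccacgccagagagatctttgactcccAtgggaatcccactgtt
Eno2, chr6:124768263-124768322: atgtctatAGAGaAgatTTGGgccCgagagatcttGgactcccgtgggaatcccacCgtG
Gm5855 differs from Eno1 at 1 of these bases and Eno2 at 13. Of the 5 positions above, Gm5855 has the base of Gm4735 at 4, the exception being T1224C.

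The share of Eno1 that cannot be told from its copies depends on fragment length, which the labels do not give. Of all windows of 50 bases in the Eno1 coding sequence, 80.7% occur letter for letter in Eno1b, 83.3% in Gm4735 and 10.9% in Gm5855. With windows of 150 bases these shares are 58.5%, 59.3% and 0.0%. No window of either length is shared with Eno2. Of the windows of Gm4735, 91.8% of those of 50 bases and 73.7% of those of 150 bases occur letter for letter in Eno1b. In the annotated transcripts, 15 other genes share at least 1 window of 30 bases with Eno1, and 14 of these are processed pseudogenes. The level table lists 3 of the 15, namely Eno1b, Gm4735 and Gm5855. The rule by which the authors assigned fragments that match several genes is not given in the sources used here.

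**Figure D1:**
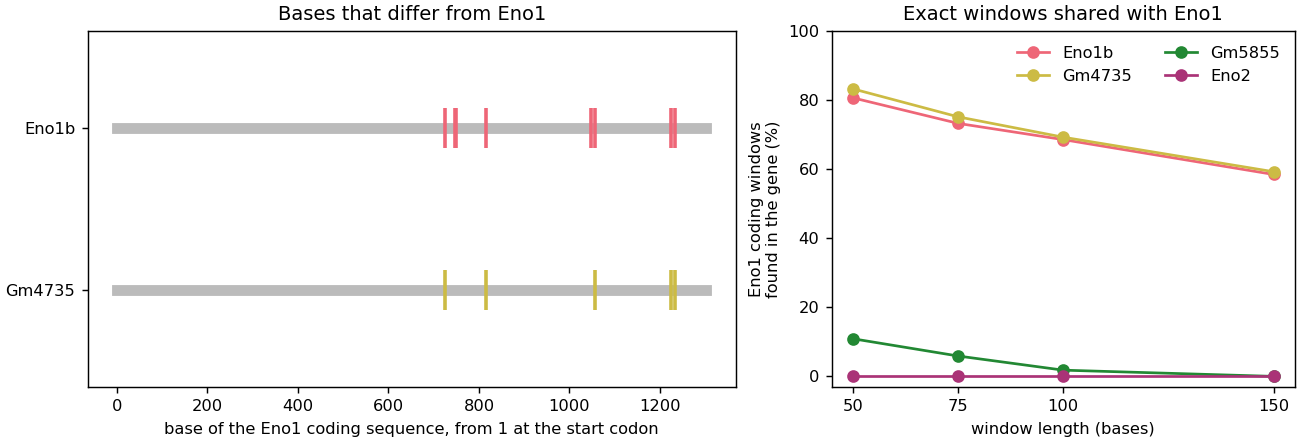
Left, the coding positions at which Eno1b and Gm4735 differ from Eno1, counted in bases from the start codon. Right, the percent of windows of the Eno1 coding sequence found letter for letter in each other gene, by window length from 50 to 150 bases: Eno1b and Gm4735 stay between 58.5 and 83.3%, Gm5855 falls from 10.9 to 0.0% and Eno2 is at 0.0%.

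Levels were deposited as FPKM, fragments per kilobase of annotated exon, scaled to the depth of the library. Counts of fragments scaled to that depth without division by length are called CPM below. Depth, recovered from the values, was 16166327 to 18660038 fragments per library, and replicates correlated at Pearson's r of 0.971 to 0.992 across genes on the log2 scale. The share of fragments on genes of the mitochondrial genome was 3.73 to 4.14% in BTBR ASIV, 0.61 to 1.16% in BTBR vehicle, 3.5 to 5.38% in C57 ASIV and 5.01 to 5.42% in C57 vehicle. BTBR vehicle stands apart in this share, and differences that involve it shifted when libraries were rescaled without these genes. That rescaling divided each library by the summed FPKM of its other genes, so the shifts do not measure the share of fragments alone. Their cause was not tested. Rescaling without these genes moved the median log2 difference over all genes to -0.10 between the strains under vehicle, and to 0.12 for ASIV in BTBR.

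Eno1, the main alpha-enolase gene, was lower in BTBR than in C57 mice under both treatments. It had 69.35, 74.74 and 69.51 FPKM in the BTBR ASIV libraries and 66.31, 71.95 and 67.8 FPKM in the BTBR vehicle libraries. It had 165.9, 164.3 and 195.1 FPKM in the C57 ASIV libraries and 167.1, 157.9 and 154.9 FPKM in the C57 vehicle libraries. Every BTBR library lay below every C57 library, whatever the treatment. Under ASIV the log2 difference, BTBR minus C57, was -1.28 ± 0.09 (standard error of the model, n = 3 libraries each), with a Benjamini-Hochberg adjusted p of 5.26e-06 from limma over all genes tested. Over 16 alternative settings the adjusted p ran from 1.08e-06 to 0.000608. Under vehicle the log2 difference was -1.21 ± 0.09. From highest to lowest mean the order was C57 ASIV, C57 vehicle, BTBR ASIV and BTBR vehicle, and within each strain the ASIV and vehicle libraries overlapped.

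Eno1b (ENSMUSG00000059040, chr18:48045335-48048412, plus strand), a copy annotated as protein coding with 2 exons, had the opposite pattern between strains. It stood at 88.3, 96.77 and 94.35 FPKM in BTBR ASIV and at 129.6, 156.2 and 141.1 FPKM in BTBR vehicle. The C57 libraries were low, at 8.457, 10.6 and 11.39 FPKM with ASIV and at 12.02, 10.28 and 11.1 FPKM with vehicle. All 6 BTBR libraries lay far above all 6 C57 libraries. Between the strains under ASIV the log2 difference was 3.09 ± 0.11 (limma, adjusted p = 1.16e-08), and the adjusted p stayed between 5.96e-10 and 3.43e-06 over 16 alternative settings. Under vehicle it was 3.56 ± 0.11. The order of means was BTBR vehicle, BTBR ASIV, C57 vehicle and C57 ASIV, with overlap only between the pair of C57 groups.

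Gm4735, annotated as a pseudogene, was also higher in BTBR. Per kilobase of annotated exon, its level in the BTBR ASIV libraries was above that of Eno1. As CPM it was below, with means there of 134.9 for Gm4735 and 383 for Eno1. The pseudogene had 97.49, 106.2 and 107.1 FPKM in BTBR ASIV and 53.44, 44.65 and 93.07 FPKM in BTBR vehicle. It had 5.873, 6.66 and 8.327 FPKM in C57 ASIV and 5.515, 6.353 and 6.567 FPKM in C57 vehicle. The third BTBR vehicle library lay well above the other 2 of its group and close to the BTBR ASIV libraries. The log2 difference between strains under ASIV was 3.73 ± 0.21 (limma, adjusted p = 1.28e-06; 1.33e-07 to 1.94e-05 over 16 alternative settings). Under vehicle it was 3.11 ± 0.21, and 2.81 without the third BTBR vehicle library. The 2 C57 groups overlapped, and the BTBR groups did not.

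Gm5855, the copy with in-frame stops, was scarce in all libraries. It had 42, 52 and 38 fragments in BTBR ASIV, 52, 41 and 52 in BTBR vehicle, 1, 5 and 3 in C57 ASIV, and 2, 2 and 3 in C57 vehicle. In FPKM this was 1.84 ± 0.32 in BTBR ASIV, 2.17 ± 0.31 in BTBR vehicle, 0.13 ± 0.09 in C57 ASIV and 0.11 ± 0.03 in C57 vehicle (SD, n = 3 each). Each BTBR library exceeded each C57 library, and ASIV and vehicle libraries overlapped within each strain. Only its BTBR libraries reached the minimum of 1 FPKM needed to enter the fit, so no test is given. Its log2 difference of FPKM + 1 between strains was 1.32 ± 0.12 under ASIV and 1.51 ± 0.12 under vehicle, a scale that understates changes of so low a gene.

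**Figure D2:**
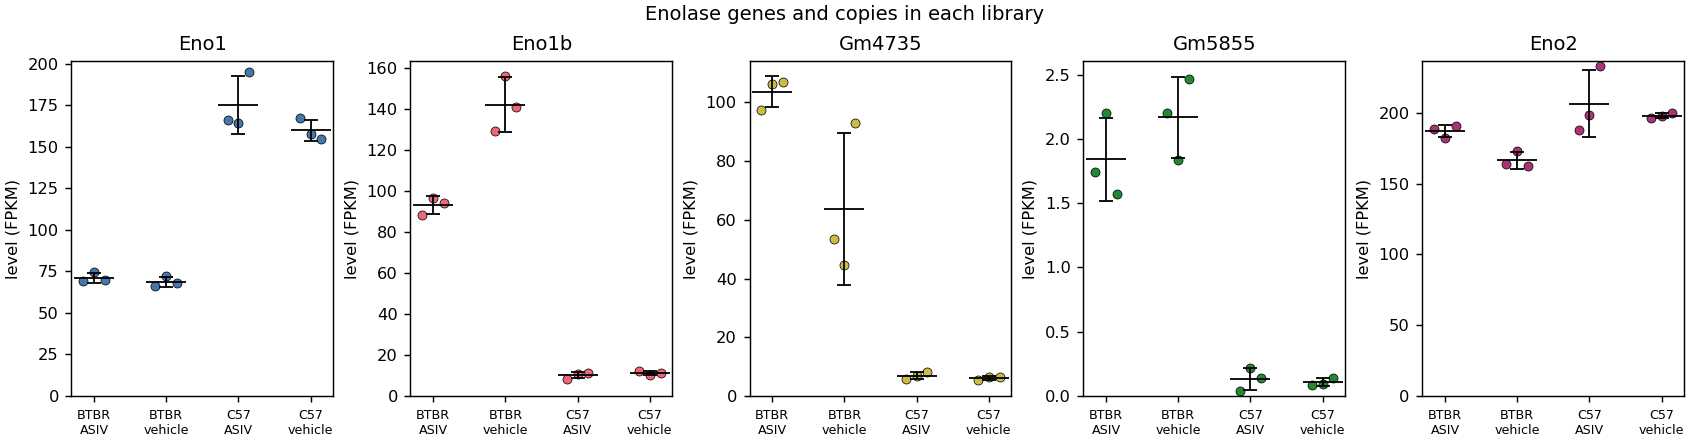
FPKM of Eno1, Eno1b, Gm4735, Gm5855 and Eno2 in each of the 12 libraries, by group, with 1 point per library and the group mean and standard deviation. Eno1 is lower, and its 3 copies higher, in every BTBR library than in every C57 library, while Eno2 stays within 162.1 to 232.9 FPKM.

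Of the 4 genes that reached 1 FPKM in every library, 3 passed the test between strains under ASIV (Eno1 lower, Eno1b and Gm4735 higher) and Eno2 did not. Of all genes tested in that comparison, 2.53% passed, 1.31% higher and 1.22% lower. That count of 344 genes rests on single libraries: it was 99 and 108 without the second and the third C57 ASIV library, 163 and 128 without the first and the third BTBR ASIV library, and 643 and 576 without the second and the third BTBR vehicle library. The strain groups did not overlap under ASIV for 3 of the 4 and under vehicle for all 4, against 26.2% and 53.3% of all genes. The ASIV and vehicle groups did not overlap for 3 of the 4 in BTBR (Eno1b, Gm4735 and Eno2) and for 0 of the 4 in C57, against 39.1% and 13.1% of all genes. The comparisons share libraries and are not independent of each other.

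The copies' share of the fragments assigned to Eno1 and its copies measures the balance within a library, free of any scaling between libraries. Eno1b, Gm4735 and Gm5855 together took 44.15, 44.54 and 46.01% of these fragments in BTBR ASIV and 46.95, 47.75 and 51.63% in BTBR vehicle. They took 2.575, 3.163 and 2.996% in C57 ASIV and 3.214, 3.154 and 3.428% in C57 vehicle. In the BTBR libraries the copies took 44.15 to 51.63%, and more than Eno1 only in the third BTBR vehicle library. In every C57 library nearly all fragments went to Eno1. The 95% Wilson interval, which covers counting error only, was 50.74 to 52.52% for the highest BTBR library and 2.347 to 2.825% for the lowest C57 library. In the exact two-sided permutation test between strains under ASIV, p was 0.1, the smallest that 3 against 3 libraries allow.

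**Figure D3:**
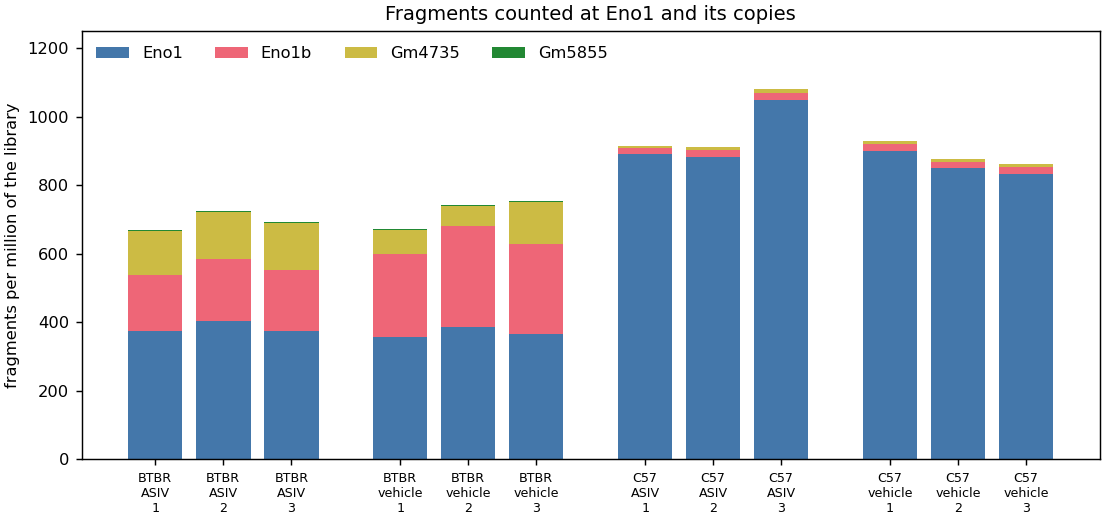
CPM (fragments scaled to library depth) assigned to Eno1, Eno1b, Gm4735 and Gm5855 in each library, stacked by gene. The copies fill 44.15 to 51.63% of each BTBR bar and 2.575 to 3.428% of each C57 bar.

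The sum of Eno1 and its copies showed a smaller strain difference than any of its parts, and its direction depended on the unit. As CPM, the sum was 668, 724.9 and 692.5 in BTBR ASIV and 672.4, 740.8 and 754 in BTBR vehicle. It was 916, 912.8 and 1082 in C57 ASIV and 928.6, 877.3 and 863 in C57 vehicle. By this count each BTBR library lay below each C57 library. The log2 difference between strains under ASIV was -0.48 ± 0.10 (limma, adjusted p = 0.0279), and under vehicle it was -0.30 ± 0.10.

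As summed FPKM, the same genes gave the other direction. The sum was 256.9, 279.9 and 272.6 FPKM in BTBR ASIV and 251.6, 274.6 and 304.5 FPKM in BTBR vehicle. It was 180.3, 181.8 and 214.9 FPKM in C57 ASIV and 184.7, 174.7 and 172.7 FPKM in C57 vehicle. Here each BTBR library lay above each C57 library, with a log2 difference of 0.49 ± 0.10 under ASIV (limma, adjusted p = 0.026) and 0.64 ± 0.10 under vehicle. The units differ in the length each fragment is divided by. Eno1 is divided by all 5379 bases annotated as exon, although its spliced mRNA has 2027, and Eno1b and Gm4735 are divided by 1877 and 1302 bases. A fragment assigned to a copy instead of to Eno1 therefore counts for more FPKM.

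Neither sum under ASIV held its side of the threshold when single libraries were left out. The FPKM sum kept its direction but lost the call in 5 of 6 such fits (adjusted p up to 0.123), keeping it only without the third C57 ASIV library. The fragment sum lost the call in 4 of 6 (adjusted p up to 0.113), namely without the second or the third C57 ASIV library and without the first or the third BTBR ASIV library. The exact permutation test gave p = 0.1 for each sum, again the smallest possible. For each strain comparison, the fragments missing from Eno1 exceeded those gained by the copies. Under ASIV, the mean of Eno1 differed by -558.9 CPM, BTBR minus C57, and the copies by 283.9 CPM. Under vehicle Eno1 differed by -491.1 CPM and the copies by 323.9 CPM.

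**Figure D4:**
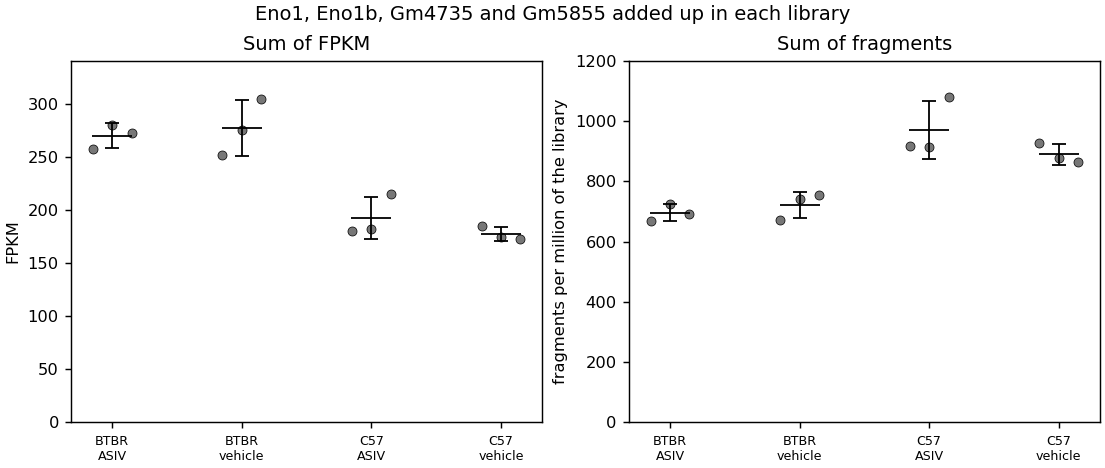
Sum of Eno1, Eno1b, Gm4735 and Gm5855 in each library as summed FPKM and as CPM, with group means and standard deviations. The BTBR libraries lie above the C57 libraries in FPKM (251.6 to 304.5 against 172.7 to 214.9) and below them in CPM (668 to 754 against 863 to 1082).

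Within BTBR, ASIV and vehicle libraries differed in which copy the fragments were assigned to. Eno1b averaged 93.14 ± 4.36 FPKM in BTBR ASIV and 142.3 ± 13.3 FPKM in BTBR vehicle (SD, n = 3 each), a log2 difference of -0.60 ± 0.11. Gm4735 averaged 103.6 ± 5.33 FPKM in BTBR ASIV and 63.72 ± 25.8 FPKM in BTBR vehicle, a log2 difference of 0.76 ± 0.21, or 1.07 without the third BTBR vehicle library. For neither copy did the treatment groups overlap. No test is given for this comparison, because the BTBR vehicle libraries were used to choose the genes.

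The fragments of Gm4735 per fragment of Eno1b were 0.7658, 0.7615 and 0.7877 in BTBR ASIV and 0.286, 0.1983 and 0.4574 in BTBR vehicle. In C57 mice the ratio was 0.4817, 0.4357 and 0.507 with ASIV and 0.3184, 0.4286 and 0.4105 with vehicle. The BTBR ASIV libraries were close together and the highest of all 12, and the BTBR vehicle libraries were the most scattered. Taken as a sum, Eno1b and Gm4735 had 309.7 ± 14.9 CPM in BTBR ASIV and 350.1 ± 36.6 in BTBR vehicle (SD, n = 3 each), with ranges that overlapped. Eno1 also overlapped, with a log2 difference of 0.05 ± 0.09. The sum of Eno1 and all copies differed by -0.03 ± 0.10 as FPKM and by -0.05 ± 0.10 as fragments, and both turned positive (0.12 and 0.1) when libraries were rescaled without mitochondrial genes. Whether the divergent mitochondrial share of the BTBR vehicle libraries bears on the split between the copies was not tested.

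Within C57, the ASIV and vehicle libraries overlapped for all 5 genes and for both sums. The log2 differences, ASIV minus vehicle, were 0.13 ± 0.09 for Eno1, -0.13 ± 0.11 for Eno1b, 0.15 ± 0.21 for Gm4735, 0.03 ± 0.12 for Gm5855 and 0.05 ± 0.09 for Eno2. Their 95% intervals reached from -0.37 (Eno1b) to 0.6 (Gm4735). In this comparison limma called 0 of 13586 genes, with 417 (3.07%) at an unadjusted p under 0.05, and limma voom on the recovered fragments also called 0. Without the first C57 ASIV library, 1 gene was called.

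Eno2, the neuronal enolase whose sequence is shared with none of the copies, differed little. It had 188.5, 182.4 and 190.8 FPKM in BTBR ASIV and 163.8, 173.3 and 162.1 FPKM in BTBR vehicle. It had 187.8, 198.6 and 232.9 FPKM in C57 ASIV and 196.3, 197.7 and 199.9 FPKM in C57 vehicle. The BTBR vehicle libraries were the lowest, and the other groups lay close together. The log2 difference between strains under ASIV was -0.13 ± 0.09, with a 95% interval of -0.34 to 0.07 (limma, adjusted p = 0.446), and the libraries overlapped. Under vehicle the log2 difference was -0.25 ± 0.09, and for ASIV in BTBR it was 0.17 ± 0.09, both without overlap. Rescaled without mitochondrial genes these were -0.39 and 0.32.

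Neuronal markers give a setting for Eno2, since in bulk tissue fewer cells of a type and less RNA per cell cannot be told apart. Of 8 markers (Rbfox3, Snap25, Syt1, Stmn2, Nefl, Nefm, Tubb3 and Map2), limma called 1 lower and 0 higher between strains under ASIV, and 2 lower and 0 higher under vehicle, against 2.53% and 43.1% of all genes called. The strain groups did not overlap for 5 of the 8 under ASIV, all lower in BTBR, and for 3 of the 8 under vehicle. Over all genes the shares without overlap were 26.2% and 53.3%. The 1 called under ASIV was Nefl, a neurofilament chain, with 44.51 ± 5.65 FPKM in BTBR ASIV and 73.18 ± 14.2 FPKM in C57 ASIV (SD, n = 3 each; adjusted p = 0.03). Snap25, a synaptic fusion protein, had 137.7 ± 24.7 FPKM in BTBR vehicle and 288.9 ± 23.8 FPKM in C57 vehicle (limma, adjusted p = 0.000347), and Nefl was the other. The markers summed to 664.9 to 799.1 FPKM in BTBR ASIV, 628.7 to 826.3 in BTBR vehicle, 853.7 to 1113 in C57 ASIV and 911.9 to 1016 in C57 vehicle. For ASIV against vehicle, 0 of the 8 passed in either strain, while 29.1% of all genes passed in BTBR and 0 in C57. Their part in the levels of Eno2 was not tested.

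The ratio of Eno1 to Eno2, which no scaling of libraries can change, was 0.368, 0.4099 and 0.3643 in BTBR ASIV and 0.4047, 0.4152 and 0.4182 in BTBR vehicle. It was 0.8835, 0.8275 and 0.8375 in C57 ASIV and 0.8513, 0.799 and 0.7749 in C57 vehicle. These are ratios of FPKM, with Eno2 divided by 4705 annotated exon bases and Eno1 by 5379. The ratio was lower in every BTBR library than in every C57 library.

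The enolases of other tissues were low here. Eno3 had 3.555 ± 1.62 FPKM in BTBR ASIV, 4.255 ± 1.39 in BTBR vehicle, 2.993 ± 0.272 in C57 ASIV and 2.634 ± 0.24 in C57 vehicle (SD, n = 3 each). Eno4 stayed between 0.8046 and 1.851 FPKM. Neither was called by limma in any of the 4 comparisons.

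The other genes of glycolysis that lay lower in BTBR under ASIV differed by less than Eno1. A list of 26 glycolytic enzymes and glucose transporters, of which 24 symbols were in the table, gave 24 tested entries for 23 symbols, since Aldoa stands in the table under a pair of identifiers and counts as 2 entries below. Between strains under ASIV, 1 was called higher, 0 lower and 23 neither, while 2.53% of all genes were called. The median log2 difference of the list was -0.07, against -0.003 over all genes. The 1 called was Slc2a1, the glucose transporter GLUT1 of the blood-brain barrier and astrocytes, at 70.43 ± 5.99 FPKM in BTBR ASIV and 34.63 ± 4.18 FPKM in C57 ASIV (log2 difference 1.01 ± 0.21, limma, adjusted p = 0.0277). That call was lost without the second or the third C57 ASIV library and without the first or the third BTBR ASIV library. The strain groups did not overlap under ASIV for 10 of the 24 entries, 4 higher and 6 lower in BTBR, against 26.2% of all genes. The 6 lower were Pfkp, Pkm, Pgk1, Pgam1, Tpi1 and Hk1, with log2 differences of -0.35 (Pgk1) to -0.15 (Hk1), and none of them was called. Next by p after Slc2a1 came Pfkp at -0.28, Pkm at -0.27 and Pgk1 at -0.35, with adjusted p of 0.201, 0.204 and 0.249.

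Between strains under vehicle, 5 glycolytic entries were called higher, 3 lower and 16 neither, while 43.1% of all genes were called. The median log2 difference of the list was 0.15, against 0.012 over all genes. Aldoc, the aldolase of astrocytes and Purkinje cells, had 183 ± 39.7 FPKM in BTBR vehicle and 285.4 ± 16.1 FPKM in C57 vehicle (limma, adjusted p = 0.0017). Pfkm, a phosphofructokinase subunit, had 164.7 ± 25.8 FPKM in BTBR vehicle and 115.5 ± 2.94 FPKM in C57 vehicle (adjusted p = 0.00227). The mutase Pgam2 was higher by 0.73 on the log2 scale and the isomerase Gpi1 had a log2 difference of -0.43. The third called lower was Tpi1, triosephosphate isomerase, at -0.37 (limma, adjusted p = 0.017), and its BTBR and C57 libraries did not overlap under either treatment.

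For ASIV in BTBR, 2 glycolytic entries were called higher, 4 lower and 18 neither, against 29.1% of all genes called, with a list median of -0.14 against -0.007. Pfkm had 111.1 ± 3.39 FPKM in BTBR ASIV and 164.7 ± 25.8 FPKM in BTBR vehicle (limma, adjusted p = 0.00208). Aldoc had 279.1 ± 11.8 FPKM in BTBR ASIV and 183 ± 39.7 FPKM in BTBR vehicle (adjusted p = 0.00388). Gpi1 rose by a log2 difference of 0.41 and Bpgm, which makes 2,3-bisphosphoglycerate, changed by -0.41. These comparisons share the BTBR vehicle libraries. For ASIV in C57, 0 of the 24 were called. The smallest p values there belonged to Aldoc (-0.31), Pgam2 (0.32), Slc2a3 (0.14) and Aldoa (0.14), all with an adjusted p of 1.

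Genes whose levels followed those of the enolases most closely over the 12 libraries were found by Pearson's r of log2(FPKM + 1), given as a description without a p. All points share the strain and treatment groups. Nearest to Eno1b were Amd2 (0.987), the processed pseudogene BC002163 (0.969), Tac2 (0.955), Adcy7 (0.954) and Mtf2 (0.951). Amd2 encodes an S-adenosylmethionine decarboxylase and Tac2 the neuropeptide precursor of neurokinin B. Nearest to Eno1 were Acp1 (0.988), Pttg1 (0.983), Emc10 (0.98), Snapc1 (0.978) and Cort (0.971). Acp1 is a low-molecular-weight phosphatase and Cort the precursor of the neuropeptide cortistatin. Nearest to Eno2 were Ankrd49 (0.967), Usp29 (0.964), Prep (0.962), Srp54c (0.96) and Tox (0.95). These genes lie on other chromosomes than the enolase they follow, except Cort, which like Eno1 is on chromosome 4. No tested gene other than Eno1b itself lies within 500 kb of it.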

How the data were processed

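RNA-seq libraries of mouse medial prefrontal cortex were analysed, 12 in all and 3 per group. The authors deposited FPKM per gene; reads were aligned with HISAT2 2.0.5 to mm10, per the submitters' processing notes. Not given in the sources used here are the counter, its annotation and strand, and how multiply matching reads were treated. The table holds 17283 genes and 0 columns of other samples. Symbols, positions and transcripts came from GENCODE M21 (17265 identifiers matched, 18 did not). The depth of each library was chosen so that FPKM times annotated exon length gave whole fragments for as many low values as possible. At that depth 97.6 to 98.0% of values under 50 fragments, values of 0 included, were whole (tolerance 0.02). Because the depth was fitted in this way, the share is not an independent check of it.

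Values were taken as log2(FPKM + 1), a pseudocount that understates changes of low genes. The 13586 genes at 1 FPKM or more in at least 3 libraries entered a limma 3.58.1 fit (R 4.3.3) of 4 group means with 8 residual degrees of freedom. Benjamini-Hochberg adjustment ran over all tested genes, with 0.05 as the threshold for a call. Fragments scaled to the recovered depth are given as CPM. For each sum the fit was repeated with Eno1, Eno1b, Gm4735 and Gm5855 replaced by 1 summed row. The CPM sum entered that fit beside the FPKM of all other genes. Fold differences carry the model's standard error. The fit was tried on simulated counts with changes set in BTBR ASIV, read for ASIV in BTBR only. The simulation held no fragments shared between copies, so it does not check the strain tests of the enolases. Coding sequences were aligned with Biopython 1.88. Shares carry 95% Wilson intervals.

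The members, gene lists and tests were chosen with earlier results of these data known. Besides the 5 enolase genes, Eno3 and Eno4, the text names up to 4 glycolysis genes per comparison with the smallest p. It also names the 5 genes with the highest correlation with Eno1b, Eno1 and Eno2, leaving out mitochondrial genes and unnamed gene models. Outside that rule it names the glycolysis genes lower in BTBR without overlap under ASIV, Tpi1 under vehicle, and Gapdh. Markers of neurons, astrocytes, oligodendrocytes, microglia, endothelium and red blood cells were counted. Alternatives were other pseudocounts, filters and scalings, limma voom on recovered fragments, fits on 6 libraries, a replicate block and leaving out each library.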

Additional observations from a re-analysis of the deposited data

How the results depend on the processing

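Log2 differences are given throughout. Eno1, Eno1b and Gm4735 kept their direction and call between strains under ASIV in all 16 alternatives run, and Eno2 was called in none (adjusted p 0.284 to 0.848). Every alternative kept the deposited assignment of fragments to genes, so none checks the split between Eno1 and its copies. The summed FPKM between strains under ASIV turned to -0.48 by limma voom and as CPM, and to -0.17 for Eno1 and Eno1b alone. It was 0.49 on the 6 libraries compared (adjusted p = 0.0564) and 0.45 to 0.57 with single libraries left out. The fragment sum was -0.48 on 6 libraries (adjusted p = 0.0682) and -0.52 to -0.4 with libraries left out; its alternatives were chosen after seeing the data. Under vehicle the FPKM sum became -0.3 by voom and as fragments, 0.5 without mitochondrial genes and 0.3 for Eno1 and Eno1b alone, and the fragment sum -0.44 without mitochondrial genes. For ASIV in BTBR the FPKM sum became 0.12 by quantile normalization and without mitochondrial genes, and -0.36 for Eno1 and Eno1b alone, and the fragment sum 0.1 without mitochondrial genes.

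Without mitochondrial genes, the strain difference under vehicle was -1.34 for Eno1 and -0.39 for Eno2, and the difference for ASIV in BTBR was 0.2 for Eno1, -0.45 for Eno1b and 0.32 for Eno2. Over all genes this rescaling turned the calls for ASIV in BTBR to 3026 higher and 1120 lower, against 1864 and 2090 as deposited. Between the strains under vehicle it gave 2026 higher and 3703 lower, against 3026 and 2832. Quantile normalization gave 0.14 for Eno1 and 0.31 for Eno2 for ASIV in BTBR. Gm5855 moved to 3.13 under ASIV and 3.47 under vehicle with a pseudocount of 0.1, to 2.39 and 2.68 as TPM, and to 3.79 and 4.11 by voom. With a minimum of 5 FPKM it left the fit and gave no value. As TPM, Eno1b under vehicle was 3.7. With single libraries left out, Gm4735 ran from 2.81 to 3.33 between strains under vehicle and from 0.55 to 1.07 for ASIV in BTBR, and Eno2 for ASIV in C57 from -0.04 to 0.12. Glycolysis calls then ran from 0 to 1 between strains under ASIV, 5 to 10 under vehicle and 3 to 6 for ASIV in BTBR. Eno1b took 25.1% of the fragments of Eno1 and its copies in BTBR ASIV, 37% in BTBR vehicle, 1.96% in C57 ASIV and 2.35% in C57 vehicle, against 34.5, 51.6, 5.27 and 6.27% of the summed FPKM. Beyond what the units themselves change, the cause of these shifts was not tested. Fits on 6 libraries called 1111 genes higher and 1147 lower for ASIV in BTBR.

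Same-numbered libraries of compared groups deviated together with correlations of -0.17 to 0.28, so the numbers were not taken to pair libraries. With the replicate number as a block, Eno1 between strains under ASIV was -1.28 (limma, adjusted p = 3.98e-05), Eno1b 3.09, Gm4735 3.73 and Eno2 -0.13, and no call of the enolases or sums changed. The block gave 1, 7, 6 and 0 glycolysis calls between strains under ASIV, between strains under vehicle, for ASIV in BTBR and for ASIV in C57.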

Other observations

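Gapdh, a glycolytic enzyme often used as an abundant reference gene, was listed at only 2.325 ± 0.64 FPKM in BTBR ASIV, 2.382 ± 0.741 in BTBR vehicle, 3.038 ± 2.41 in C57 ASIV and 7.291 ± 9.48 in C57 vehicle (SD, n = 3 each), far below abundant enzymes of the pathway such as Pgk1 (129.8 ± 7.29 FPKM in BTBR ASIV and 167.1 ± 26.2 FPKM in C57 ASIV). How fragments of Gapdh were assigned was not tested.

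Between strains under ASIV, limma called 0 of 7 astrocyte, 0 of 6 oligodendrocyte, 0 of 6 microglia, 0 of 4 endothelial and 0 of 4 tested red blood cell markers. These lists held 27 tested markers in all, of which 0 were called there, 8 between strains under vehicle and 7 for ASIV in BTBR, while 2.53%, 43.1% and 29.1% of all genes were called in these comparisons. P2ry12, a purinergic receptor of homeostatic microglia, had 3.708 ± 1.32 FPKM in BTBR vehicle and 15.91 ± 1.29 FPKM in C57 vehicle (limma, adjusted p = 6.28e-06), and it had 13.42 ± 1.53 FPKM in BTBR ASIV against that BTBR vehicle level (adjusted p = 5.9e-05). Cx3cr1 was called in the same directions. Aif1, of the same microglia list, went the other way in both comparisons. It had 6.03 ± 1.22 FPKM in BTBR vehicle, 3.065 ± 0.169 in C57 vehicle and 3.132 ± 0.388 in BTBR ASIV (limma, adjusted p = 0.000411 and 0.000997). Between strains under vehicle the calls were 1 higher and 1 lower for astrocytes, 1 higher for oligodendrocytes, 1 higher and 2 lower for microglia, 1 higher for endothelium and 1 lower for red blood cells. For ASIV in BTBR they were 1 lower for astrocytes, 1 lower for oligodendrocytes, 2 higher and 1 lower for microglia, 2 lower for endothelium and 0 for red blood cells. For ASIV in C57 none of these lists had a call. The summed astrocyte markers, beside which Eno1 is read in the brain, were 452.5 to 541.7 FPKM in BTBR ASIV, 407.3 to 555.6 in BTBR vehicle, 394.9 to 498 in C57 ASIV and 471.7 to 565.3 in C57 vehicle. Their part in the level of Eno1 was not tested.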
